A study of Mus musculus with 24 samples.

Results

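The 10 genes of the Myc and Max network, namely Myc, Mycn, Mycl, Max, Mxd1, Mxd3, Mxd4, Mxi1, Mnt and Mlx, were followed by their gene symbol through 2 tables of bulk RNA-seq from mouse pluripotent stem cells. All 10 members were listed and tested in both tables, out of 23095 genes in the J1 table and 25476 genes in the tet-off table. The J1 table held ESCs, D-EPSCs and L-EPSCs of the J1 line (genotype WT, no treatment), where EPSCs are expanded potential stem cells made by either of 2 published culture protocols. The tet-off table held ESCs, untreated L-EPSCs and doxycycline (Dox)-treated L-EPSCs of the Oct4-cKO (ZHBTc4), Sox2-cKO (2TS22C) and Nanog-cKO (NgcKO) lines, each of which is a single established line. In all 9 tet-off groups, controls included, the endogenous copies of the named factor are deleted and the cells carry a transgene of it that Dox suppresses. Each Dox comparison thus set a suppressed against an unsuppressed transgene, and cells with Dox against cells without it. No group lacking such a transgene received Dox, so loss of the factor and exposure to Dox itself cannot be told apart. The study reported that Oct4-cKO and Sox2-cKO L-EPSCs collapsed with Dox. It reported that Nanog-cKO cells could still be maintained with Dox, with smaller and fewer colonies. Each of the 12 groups had 2 replicates, 24 libraries in all, and the labels gave neither the dose nor the time of Dox. The labels described ESCs in serum medium with LIF and the inhibitors CHIR99021 (of GSK3) and PD0325901 (of MEK), D-EPSCs in N2B27 with LIF, CHIR99021, dimethindene maleate and minocycline hydrochloride, and L-EPSCs with LIF, CHIR99021, PD0325901, A-419259, XAV939, JNK inhibitor VIII and SB203580. The same culture text stood beside every sample and named the J1 line for the ESC medium, so the ESC medium of the tet-off lines was not given separately.

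Myc, Mycn and Mycl encode basic helix-loop-helix leucine zipper factors that bind DNA as dimers with Max, most often at the E-box CACGTG, and promote growth, ribosome production and metabolism. Max also pairs with the Mxd proteins (Mxd1, Mxd3, Mxd4 and Mxi1) and with Mnt, which recruit Sin3 and histone deacetylase corepressors to the same kind of site. Mlx is a Max-like partner of the glucose-sensing factors MondoA and ChREBP and can also pair with Mnt and some Mxd proteins. In mouse ESCs Myc and Mycn are known to act redundantly in self-renewal, and Myc is known as a target of LIF, Wnt and MEK/ERK signalling.

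On NCBIM37, the build the reads were counted on, Myc (ENSMUSG00000022346) lies on chromosome 15 from 61816946 to 61821929 on the plus strand, Mycn on chromosome 12 from 12942902 to 12948720 on the minus strand, and Mycl, which that annotation names Mycl1, on chromosome 4 from 122672895 to 122679728 on the plus strand. Max is at chromosome 12 from 78038256 to 78063235, Mnt at chromosome 11 from 74644422 to 74659227, Mxd4 at chromosome 5 from 34516536 to 34530369 and Mxd1 at chromosome 6 from 86597038 to 86619153. RefSeq promoters on GRCm38.p6, from 250 bases before to 50 bases after a gene's start, were found for 9 of the 10 members, 11 promoters in all, and Myc had no entry. The palindrome CACGTG, which reads the same on both strands, was searched because it is the site that Max dimers bind. It occurred in the promoters of 4 members (Mxd4, Mnt, Mlx and Max) and in 7.15% of the 32851 promoters of the table. The 30 bases around each are printed on the gene's own strand, with the E-box in capitals:
Mxd4: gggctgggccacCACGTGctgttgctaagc
Mnt: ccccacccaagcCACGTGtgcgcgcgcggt
Mlx: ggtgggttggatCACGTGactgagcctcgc
Max: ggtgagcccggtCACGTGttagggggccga
The E-box began 219 bases before the start in Mxd4 (chr5:34187912-34187941, minus strand), 123 before it in Mnt (chr11:74830789-74830818, plus strand), 40 before it in Mlx (chr11:101087238-101087267, plus strand) and 3 before it in Max (chr12:76962234-76962263, minus strand). A match of these letters is a description of the window and says nothing of binding in these cells.

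Reads on genes ranged from 11612919 to 15069899 per library in the J1 table and from 10807631 to 14798984 in the tet-off table. Values are normalised counts (reads divided by a size factor), given for replicate 1 and replicate 2 or as mean ± SD (n = 2), and levels of different members were compared only per exonic kilobase. Sums over markers were not divided by exonic length, so long and abundant genes weigh most in them. The targeted gene checked the labels: with Dox, Pou5f1 (which encodes Oct4) went from 6368 ± 73.7 to 173 ± 15.5 in Oct4-cKO L-EPSCs, Sox2 from 4833 ± 188 to 50.1 ± 4.33 in Sox2-cKO L-EPSCs and Nanog from 8983 ± 192 to 3139 ± 38.2 in Nanog-cKO L-EPSCs. All 10 pluripotent cell markers were above 0 in every group, and their summed level lay between 47359 and 93099 in the groups without Dox. Transcripts known as markers of other cell types were also counted. The 10 fibroblast markers summed to 99915 to 102042 in J1 ESCs, 59526 to 59624 in D-EPSCs and 19979 to 20500 in L-EPSCs, with none at 0, and to between 96.5 and 683 over the 9 of them listed in the tet-off table, where Lum was at 0 in 8 of the 9 groups. Not all of them followed their sum. In J1 D-EPSCs against ESCs 3 were called higher and 4 lower by the tests given below, beside 10.8% and 9.98% of all genes. The 8 macrophage markers summed to 2579 in both J1 ESC libraries, 20139 to 20249 in D-EPSCs and 15996 to 16103 in L-EPSCs, with none at 0, and to between 232 and 789 in the tet-off table, where Tyrobp was at 0 in 8 of the 9 groups. The labels name feeder fibroblasts as one of the culture surfaces, while the study's methods add a feeder-free period before sequencing for both kinds of EPSC. Whether these transcripts came from other cells or from the cultured stem cells, and their part in the J1 differences below, was not tested.

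Tests were run with limma on log2(normalised count + 1), and a gene was called where it differed by more than 0.6 on the log2 scale (more than 1 for Dox and for differences between lines) with an adjusted p below 0.05. Nothing states that the 2 replicates of a group were separate cultures, so the p-values measure only the spread between these libraries, and an exact permutation test of 2 libraries against 2 cannot give a two-sided p under 0.333. In bulk libraries, fewer cells of a type and less RNA per cell cannot be told apart. Across the 9 comparisons, Myc was called in 9, Mycn in 6, Mxd4 in 5, Mycl in 4, and Mxd1 and Mnt in 2 each. Max, Mxd3, Mxi1 and Mlx were not called in any of the 9. Wherever a count of 0 calls is given below for the members or for a list other than the cell type markers, edgeR and DESeq2 on the recovered reads also called 0. Counts at an unadjusted p under 0.05, given beside such a 0, ignore the fold threshold. Some of those genes also had an adjusted p below 0.05 and missed only the fold threshold. Reads of Mlx, Mxd3 and Mxi1 are less certain, since 385, 104 and 194 of their exonic bases are shared with genes on the opposite strand (Psmc3ip, Prelid1 and Gm10197) and the strand setting of the counting was not given in the sources used here.

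**Figure D1:**
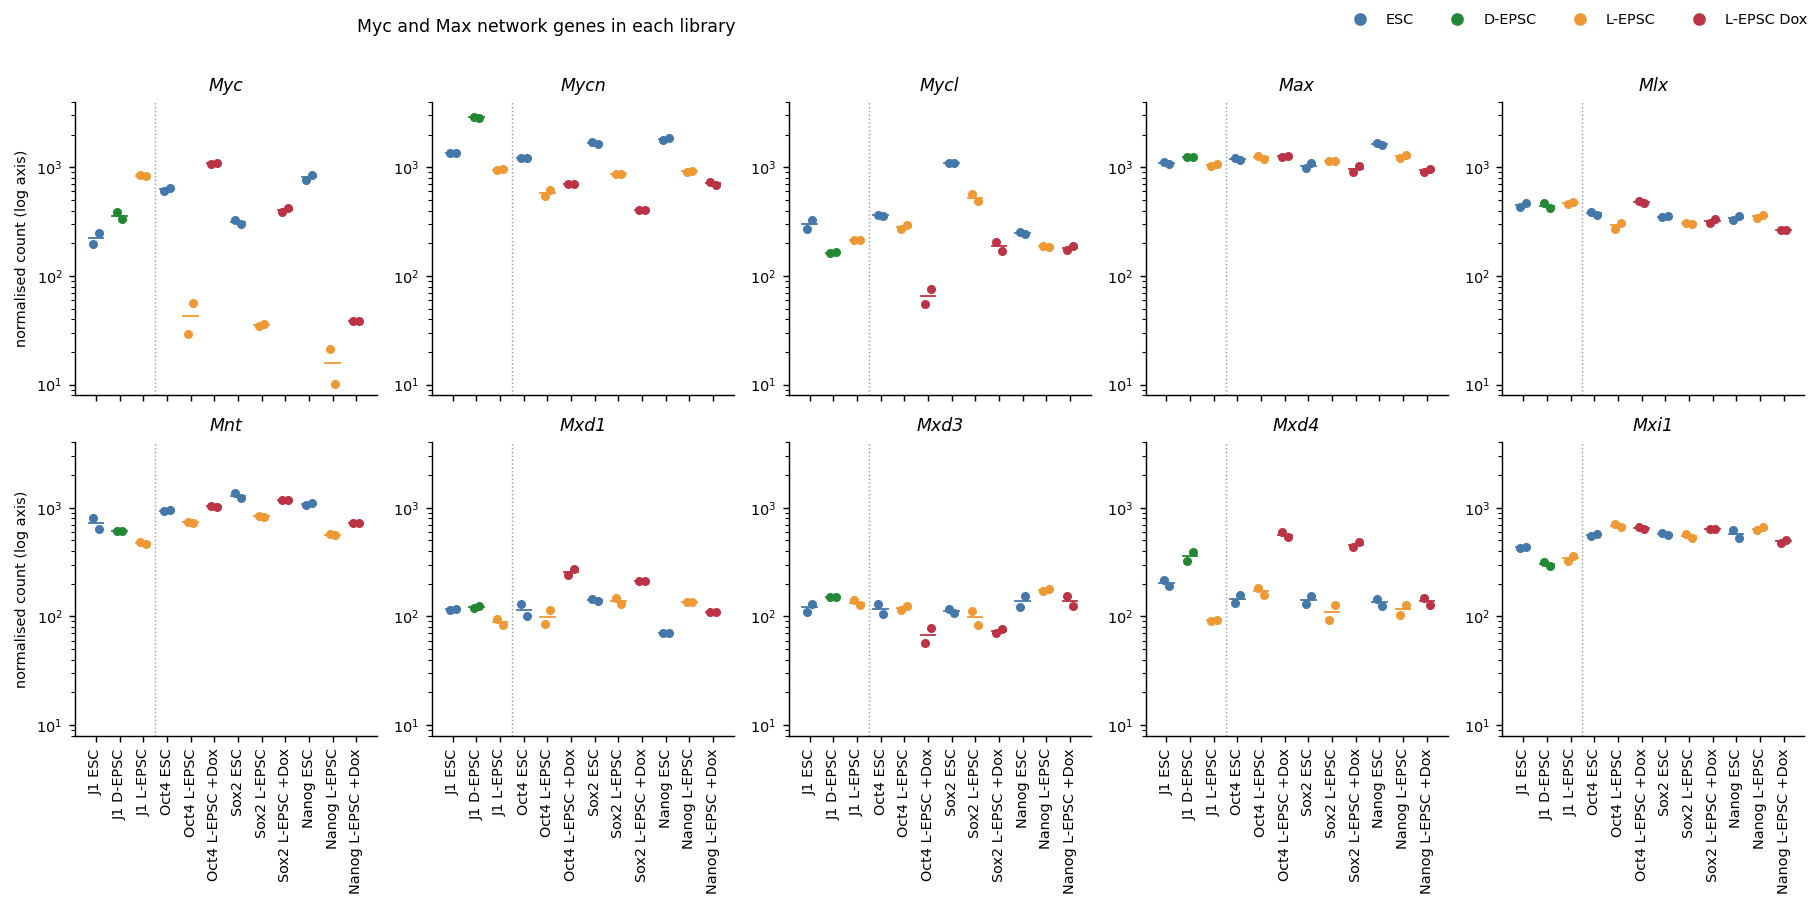
Normalised counts (log axis) of the 10 network genes in each of the 24 libraries, with 2 points per group, a short line at the group mean, and a dotted line between the J1 and tet-off tables, which were normalised separately. Myc ran from 10.2 to 1098 in the tet-off libraries, while Max stayed between 907 and 1665 and Mxi1 between 478 and 713.

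In J1 cells the 3 Myc family genes went different ways from state to state: Myc was highest in L-EPSCs, Mycn in D-EPSCs and Mycl in ESCs. Myc had 196 and 247 normalised counts in ESCs, 388 and 333 in D-EPSCs and 843 and 837 in L-EPSCs. The 3 states did not overlap and rose in that order. Relative to ESCs, Myc was 3.79-fold higher in L-EPSCs (log2 1.93, SE 0.12, adjusted p = 1e-05) and 1.63-fold higher in D-EPSCs (log2 0.71, SE 0.12, adjusted p = 0.0024). The D-EPSC call was lost without any 1 of 3 of the 4 libraries behind it, namely D-EPSC replicate 1 (log2 0.60, adjusted p = 0.1), D-EPSC replicate 2 (0.82, adjusted p = 0.056) or ESC replicate 1 (0.54, adjusted p = 0.061), and with the 2 groups fitted alone (0.71, adjusted p = 0.053). Between the EPSC states, L-EPSCs exceeded D-EPSCs 2.33-fold (log2 1.22, SE 0.12, adjusted p = 0.00021).

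Mycn, the Myc family gene with the highest level per kilobase in J1 ESCs, had 1343 normalised counts in both ESC libraries, 2920 and 2861 in D-EPSCs and 949 and 960 in L-EPSCs. Both D-EPSC libraries were above, and both L-EPSC libraries below, every ESC library. It was 2.15-fold higher in D-EPSCs than in ESCs (log2 1.11, SE 0.036, adjusted p = 3.3e-07) and 3.03-fold higher in D-EPSCs than in L-EPSCs (log2 −1.60 for L-EPSCs against D-EPSCs, adjusted p = 2.1e-07), while the difference between L-EPSCs and ESCs (log2 −0.49) stayed within the fold threshold. Mycl had 272 and 329 in ESCs, 162 and 166 in D-EPSCs and 213 in both L-EPSC libraries. All EPSC libraries were below all ESC libraries, and the D-EPSC difference was called (log2 −0.86, SE 0.11, adjusted p = 0.0006). For L-EPSCs it was −0.49, and −0.63 and called without ESC replicate 1.

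Among the Max partners that oppose Myc, Mxd4 moved most in J1 cells. It had 217 and 190 normalised counts in ESCs, 322 and 390 in D-EPSCs and 90.5 and 93.1 in L-EPSCs, with no overlap between states. It was 1.75-fold higher in D-EPSCs than in ESCs (log2 0.80, SE 0.13, adjusted p = 0.0018, or 0.71 and not called without ESC replicate 2) and 2.21-fold lower in L-EPSCs than in ESCs (log2 −1.14, SE 0.13, adjusted p = 0.00027). The difference between the 2 EPSC states was 3.88-fold (log2 −1.94 for L-EPSCs against D-EPSCs, adjusted p = 3e-05). Mnt, the most abundant antagonist per kilobase, had 802 and 642 in ESCs, 605 and 610 in D-EPSCs and 489 and 464 in L-EPSCs. The L-EPSC difference from ESCs was just short of the fold threshold (log2 −0.59, adjusted p = 0.0022) and was called without ESC replicate 2 (−0.75). Mxd1, Mxd3 and Mxi1 ranged from 82.7 to 124, from 111 to 152 and from 288 to 433 over the 6 libraries and were called in none of the 3 comparisons. Max (1025 to 1249) and Mlx (422 to 475) also stayed within the threshold, with highest group means 1.19 and 1.06 times their lowest.

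Counted over the members, D-EPSCs against ESCs gave 3 called higher and 1 lower of 10, beside 20.7% of the 21533 genes tested (10.8% higher and 9.98% lower). Of the 3 called higher, the calls of Myc and Mxd4 depended on single libraries, as given above, so this count is not stable. L-EPSCs against ESCs gave 1 higher and 1 lower, beside 20.3% (8.80% higher and 11.5% lower), and L-EPSCs against D-EPSCs 1 higher and 2 lower, beside 13.4% (4.80% higher and 8.58% lower). The first 2 comparisons share the ESC libraries. The L-EPSC share of members lay at the background.

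In the tet-off lines the direction of Myc between ESCs and L-EPSCs was the opposite of that in J1. In the Nanog-cKO line Myc had 768 and 846 normalised counts in ESCs but 21.3 and 10.2 (20 and 10 reads) in L-EPSCs. This was 51.3-fold lower (log2 −5.68, SE 0.26, adjusted p = 3e-11). The Oct4-cKO line had 601 and 648 in ESCs but 29.3 and 56.6 in L-EPSCs, 14.5-fold lower (log2 −3.90, SE 0.26, adjusted p = 2.8e-09). In the Sox2-cKO line Myc went from 325 and 300 to 34.6 and 35.9, which was 8.87-fold lower (log2 −3.11, SE 0.26, adjusted p = 8.8e-08). Every L-EPSC library of the 3 lines lay below every ESC library. Since the tables were normalised separately, the J1 and tet-off differences were not tested against each other.

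Cell type markers also differed between ESCs and L-EPSCs of these lines. The 10 pluripotent cell markers summed to 80719 to 81394 in ESCs and 49631 to 50566 in L-EPSCs of the Oct4-cKO line, to 64837 to 65821 and 54713 to 55169 in the Sox2-cKO line, and to 91588 to 93099 and 58775 to 59808 in the Nanog-cKO line. The 8 primitive endoderm markers went up in sum in the Oct4-cKO line, from 5286 to 5484 in ESCs to 15115 to 15237 in L-EPSCs. Of them 6 were called higher and 1 lower, beside 13.0% and 15.4% of all genes. The sum went from 6298 to 6391 up to 9494 to 9741 in the Sox2-cKO line (3 higher and 4 lower, beside 7.99% and 11.6%). In the Nanog-cKO line it went from 2924 to 2976 down to 2009 to 2042 (4 higher and 1 lower, beside 12.2% and 14.7%). Foxa2 was at 0 in both libraries of Oct4-cKO ESCs and of Sox2-cKO L-EPSCs. Most of the L-EPSC sum was Col4a1 in the Oct4-cKO (12603 ± 188) and Sox2-cKO (7096 ± 142) lines. In the Nanog-cKO line Lama1 fell from 2262 ± 22 to 590 ± 5.73 while Col4a1 rose from 520 ± 58.5 to 1090 ± 9.4. The 8 trophoblast markers summed to 653 to 714 and 1271, to 1164 to 1216 and 660 to 678, and to 288 to 295 and 240 to 280 in the same order. Of them 3 and 0, 0 and 2, and 3 and 1 were called higher and lower, beside the shares of all genes given above. In the Nanog-cKO line the sum thus fell while more of these markers were called higher than lower. The part of these shifts in the conversion differences was not tested.

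Mycn fell with conversion in each line by a similar amount. It had 1222 and 1208 normalised counts in Oct4-cKO ESCs against 542 and 615 in L-EPSCs (log2 −1.07, SE 0.054, adjusted p = 7.4e-11), 1700 and 1653 against 863 and 860 in the Sox2-cKO line (−0.96, SE 0.054, adjusted p = 6.7e-10), and 1789 and 1862 against 909 and 924 in the Nanog-cKO line (−0.99, SE 0.054, adjusted p = 2.1e-10). In no line did the ESC and L-EPSC libraries overlap, and the largest difference between lines was −0.11 (95% interval −0.28 to 0.05). Mycl stood highest in Sox2-cKO ESCs, at 1096 and 1099, and fell to 564 and 490 in their L-EPSCs (log2 −1.06, SE 0.13, adjusted p = 4.6e-06). In the Oct4-cKO and Nanog-cKO lines its differences, −0.35 and −0.41, stayed within the threshold.

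Mnt was lower in L-EPSCs of all 3 lines and was called in 2. It had 1353 and 1238 normalised counts in Sox2-cKO ESCs and 847 and 828 in their L-EPSCs (log2 −0.63, SE 0.048, adjusted p = 2.4e-08, or −0.56 and not called without ESC replicate 1), and 1063 and 1102 against 576 and 557 in the Nanog-cKO line (−0.93, SE 0.048, adjusted p = 9.8e-11). In the Oct4-cKO line the difference was −0.34. Mxd1, an antagonist known to accumulate as cells differentiate, had 70.1 and 70.6 in Nanog-cKO ESCs and 136 in both L-EPSC libraries, 1.93-fold higher (log2 0.94, SE 0.15, adjusted p = 6.3e-05). It did not pass in the other lines (−0.20 and −0.03). Mxd4 (−0.38 to 0.22), Mxi1 (−0.06 to 0.28), Mxd3 (−0.20 to 0.35), Max (−0.37 to 0.14) and Mlx (−0.37 to 0.04) were not called in any line, although Mxd4 reached −0.61 and was called in the Sox2-cKO line without L-EPSC replicate 2.

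The members called were 0 higher and 2 lower of 10 in the Oct4-cKO line, beside 28.4% of the 24007 genes tested (13.0% higher and 15.4% lower), with 1 higher at an unadjusted p under 0.05. They were 0 and 4 in the Sox2-cKO line, beside 19.6% (7.99% and 11.6%), again with 1 higher at an unadjusted p under 0.05, and 1 and 3 in the Nanog-cKO line, beside 26.9% (12.2% and 14.7%).

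Genes that MEK/ERK signalling is known to induce moved with Myc between ESCs and L-EPSCs in both tables, and were chosen after their values had been seen. Dusp6, an ERK phosphatase, was 77.0 ± 4.63 in J1 ESCs, 752 ± 14.6 in D-EPSCs and 1189 ± 30.0 in L-EPSCs. In the tet-off lines it went the other way, from 719 ± 31.3 to 71.9 ± 11.4 in the Oct4-cKO line, from 1248 ± 81.6 to 133 ± 9.39 in the Sox2-cKO line and from 778 ± 49.6 to 36.7 ± 12.9 in the Nanog-cKO line. Spry4, a feedback inhibitor of the pathway, was likewise 29.6-fold higher in J1 L-EPSCs than in J1 ESCs (log2 4.88) and between 27.6-fold and 103-fold lower in the tet-off L-EPSCs than in their ESCs (log2 −4.74 to −6.71). Egr1, an immediate early transcription factor gene, was also higher in J1 L-EPSCs than in ESCs (log2 6.40) and lower in L-EPSCs of the Oct4-cKO (−2.71), Sox2-cKO (−2.74) and Nanog-cKO (−1.24) lines. The labels list PD0325901 for both ESCs and L-EPSCs, while Dusp6 was high in the J1 L-EPSC and tet-off ESC libraries. The part of this signalling in the differences of Myc was not tested.

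**Figure D2:**
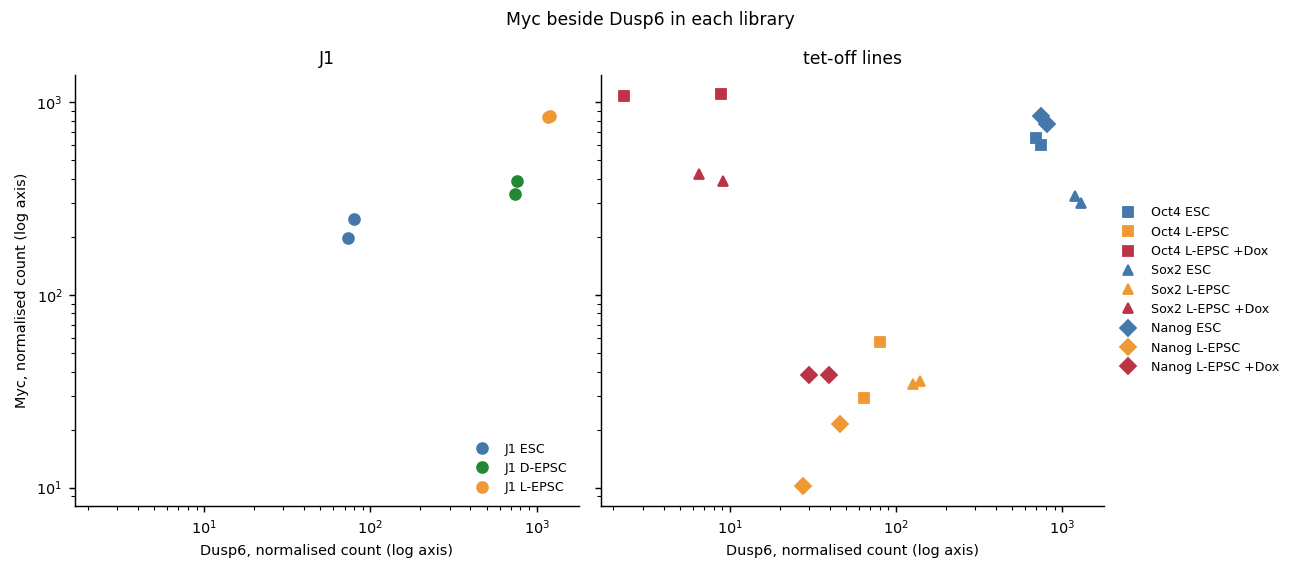
Normalised counts of Myc against those of Dusp6 (both on log axes) in each library of the J1 table and of the tet-off table, with 2 points per group. Without Dox the libraries with more Dusp6 had more Myc when ESCs were set against L-EPSCs of 1 line, while Dox-treated Oct4-cKO and Sox2-cKO L-EPSCs held 390 to 1098 Myc beside at most 9.07 Dusp6.

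Myc was higher with Dox in L-EPSCs of all 3 lines, and by less in the Nanog-cKO line than in the Oct4-cKO and Sox2-cKO lines. The difference between the Oct4-cKO and Sox2-cKO lines was not stable, as given below. In Oct4-cKO L-EPSCs Myc went from 29.3 and 56.6 to 1070 and 1098 normalised counts, the highest values of the table and 25.2-fold above the untreated cells (log2 4.70, SE 0.26, adjusted p = 2.6e-10). In Sox2-cKO L-EPSCs it went from 34.6 and 35.9 to 390 and 424, an 11.5-fold difference (log2 3.49, SE 0.26, adjusted p = 1.5e-08). Treated and untreated libraries did not overlap in either line. In Nanog-cKO L-EPSCs Myc had 38.6 and 38.2 with Dox against 21.3 and 10.2 without (log2 1.32, SE 0.26, adjusted p = 0.0013), which rests on 20 and 10 untreated reads. That call was lost without untreated replicate 2 (log2 0.82, adjusted p = 0.039) and with the 2 groups fitted alone (adjusted p = 0.25).

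Mycn and Mycl did not follow Myc. Mycn had 707 and 702 normalised counts in Dox-treated Oct4-cKO L-EPSCs against 542 and 615 without Dox, a difference within the threshold (log2 0.29, SE 0.054). In Sox2-cKO L-EPSCs it fell from 863 and 860 to 407 and 408 (log2 −1.08, SE 0.054, adjusted p = 1e-10). In Nanog-cKO L-EPSCs the 730 and 692 with Dox against 909 and 924 stayed within the threshold (−0.37). Mycl fell from 272 and 297 to 55.3 and 75.5 with Dox in the Oct4-cKO line (log2 −2.12, SE 0.13, adjusted p = 5.7e-10). In the Sox2-cKO line it fell from 564 and 490 to 205 and 168 (−1.49, SE 0.13, adjusted p = 6.3e-08). Neither line showed overlap, whereas in the Nanog-cKO line the treated (173 and 188) and untreated libraries (187 and 186) overlapped (−0.05, 95% interval −0.32 to 0.22).

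A pair of the Mxd genes rose beside Myc. Mxd4 had 597 and 535 normalised counts in Dox-treated against 184 and 156 in untreated Oct4-cKO L-EPSCs, 3.33-fold higher (log2 1.73, SE 0.16, adjusted p = 1.7e-07). In the Sox2-cKO line it had 433 and 483 against 91.8 and 127, 4.19-fold higher (log2 2.07, SE 0.16, adjusted p = 2.4e-08). Its Nanog-cKO libraries, 148 and 128 against 104 and 127, differed by 0.25 and were not called. Mxd1 rose from 85.2 and 114 to 242 and 271 in the Oct4-cKO line (log2 1.37, SE 0.15, adjusted p = 9.6e-07), while its 212 and 214 against 149 and 131 in the Sox2-cKO line (0.61) stayed within the threshold. Mnt, 0.48, 0.50 and 0.35 higher on the log2 scale in the 3 lines, never overlapped between treated and untreated libraries but stayed within the threshold in each.

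Mxd3, an Mxd gene known to be transcribed in dividing cells, had 56.4 and 77.7 normalised counts with Dox against 114 and 124 without in the Oct4-cKO line (log2 −0.84, SE 0.19), and −1.07 and called without treated replicate 2. In the other lines it differed by −0.40 and −0.34. Mlx differed by 0.73 in the Oct4-cKO line (494 and 474 against 273 and 310), 0.06 in the Sox2-cKO line and −0.40 in the Nanog-cKO line. Max (0.03, −0.24 and −0.43) and Mxi1 (−0.07, 0.22 and −0.38) were not called. Of the 10 members, 3 were called higher and 1 lower in the Oct4-cKO line, beside 19.3% of all genes (8.53% and 10.8%). The Sox2-cKO line gave 2 and 2, beside 15.1% (7.79% and 7.32%), and the Nanog-cKO line 1 and 0, beside 5.39% (2.80% and 2.59%), with 4 lower at an unadjusted p under 0.05. The untreated L-EPSC libraries enter both the conversion and the Dox comparison of a line, so the values of the 2 are not independent.

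Cell type markers moved with Dox too. The 10 pluripotent cell markers summed to 49631 to 50566 without and 5872 to 5969 with Dox in the Oct4-cKO line, to 54713 to 55169 and 9990 to 10394 in the Sox2-cKO line, and to 58775 to 59808 and 34082 to 35528 in the Nanog-cKO line. This list includes Pou5f1, Sox2 and Nanog, so in each line part of the fall was that of the targeted gene itself. The 8 trophoblast markers, none at 0 in both libraries of any of these groups, summed to 1271 without and 5842 to 5845 with Dox in the Oct4-cKO line, to 660 to 678 and 2576 to 2593 in the Sox2-cKO line, and to 240 to 280 and 301 to 308 in the Nanog-cKO line. Of them 5 and 0, 6 and 0, and 0 and 0 were called higher and lower, beside the shares of all genes given below. The 8 primitive endoderm markers summed to 15115 to 15237 and 6939 to 7055, to 9494 to 9741 and 3868 to 3893, and to 2009 to 2042 and 1320 to 1361 in the same order. Most of this sum was Col4a1 in the Oct4-cKO (12603 ± 188 to 5474 ± 14.4) and Sox2-cKO lines (7096 ± 142 to 2633 ± 2.1). Of the 8, the counts called higher and lower were 1 and 4 (beside 8.53% and 10.8% of all genes), 2 and 4 (7.79% and 7.32%), and 0 and 1 (2.80% and 2.59%). Pdgfra rose in the Oct4-cKO (log2 1.46) and Sox2-cKO lines (2.17). Whether these marker shifts carried those of Myc, Mycl, Mxd1 and Mxd4 was not tested. Dusp6 was at 2.30 and 8.88 in Dox-treated Oct4-cKO and at 9.07 and 6.54 in Dox-treated Sox2-cKO L-EPSCs, the lowest values of that gene in the table. Spry4 also fell with Dox in both lines (log2 −4.67 and −3.72), but Egr1 was not called, at 46.0 ± 11.1 without and 54.4 ± 14.2 with Dox in the Oct4-cKO line (0.23) and 64.2 ± 16.1 and 59.9 ± 5.43 in the Sox2-cKO line (−0.08). In the Nanog-cKO line none of the 3 genes was called with Dox (Dusp6 −0.05, Spry4 −0.64 and Egr1 −0.12).

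**Figure D3:**
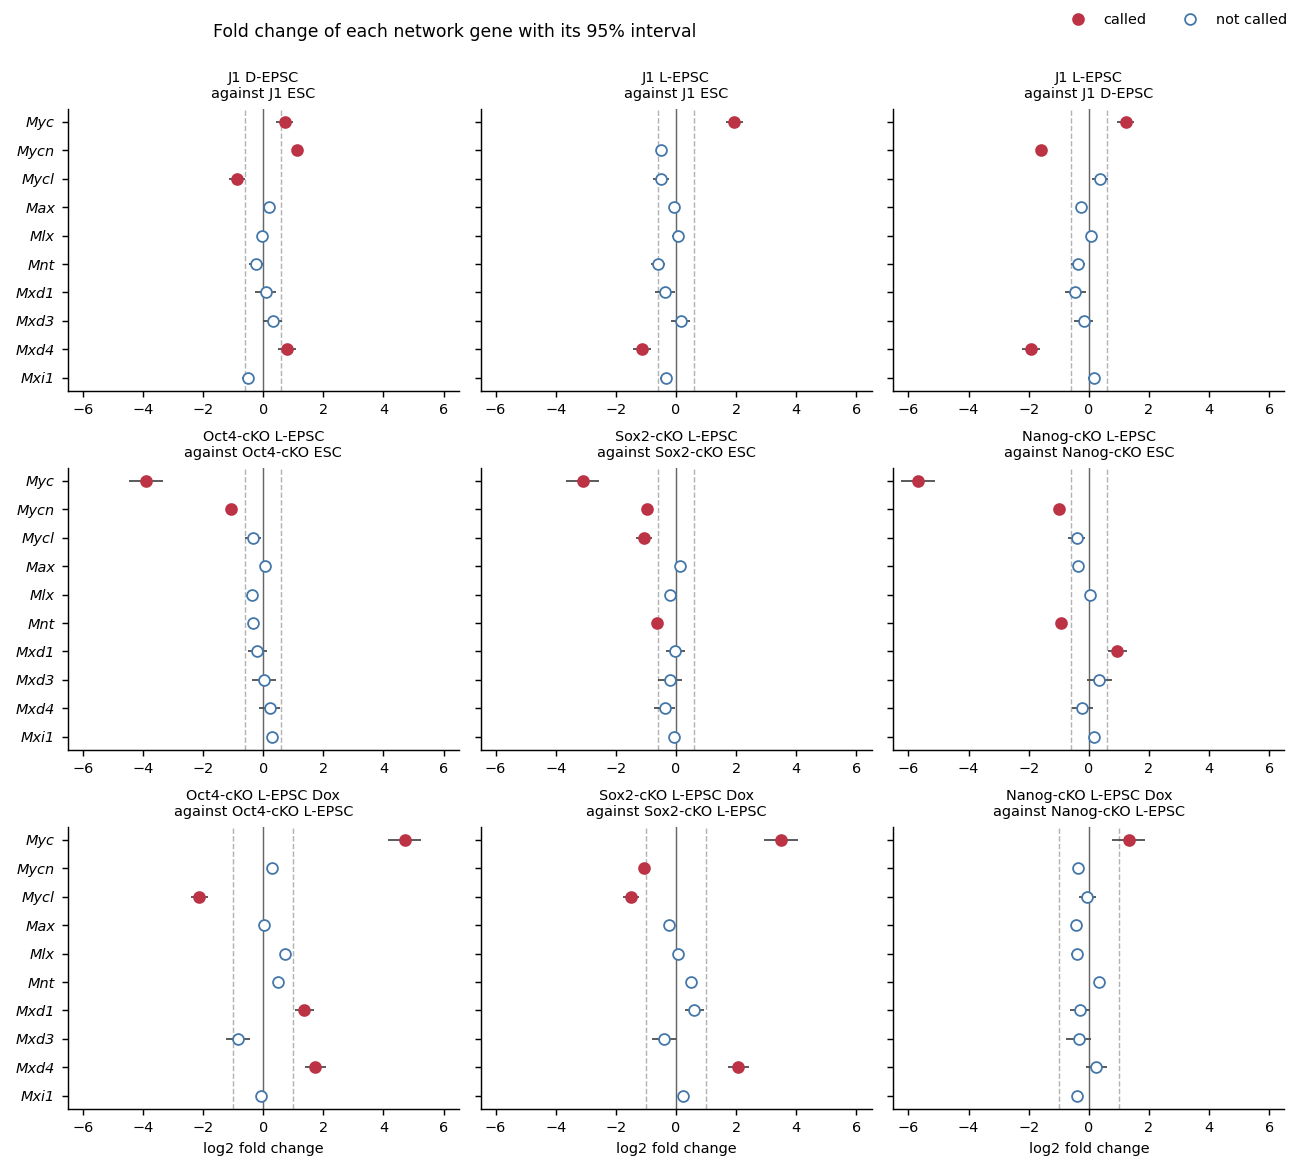
Log2 fold change of each network gene in the 9 comparisons, with its 95% interval as a line, filled points for genes called, and dashed lines at the fold threshold of 0.6 or, for Dox, 1. Myc is called in each panel, higher in J1 EPSCs, lower in tet-off L-EPSCs and higher with Dox, while Max, Mlx, Mxd3 and Mxi1 have open points in all 9 panels.

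Differences of the Dox effect between lines were tested as interaction terms. The targeted RNA itself fell less in the Nanog-cKO line (log2 −1.52) than in the Oct4-cKO (−5.19) or Sox2-cKO line (−6.57), and the part of this in the differences was not tested. These are RNA values, and the study reported loss of the targeted protein with Dox in each line, Nanog included. Between the Oct4-cKO and Nanog-cKO lines 5 of 10 members differed, beside 14.8% of all genes: Myc by 3.38 (SE 0.37, adjusted p = 2e-06), Mycl by −2.07 (adjusted p = 1.2e-07), Mxd1 by 1.67 (adjusted p = 8.9e-06), Mxd4 by 1.48 (adjusted p = 8.2e-05) and Mlx by 1.14 (adjusted p = 6.9e-07). Between the Sox2-cKO and Nanog-cKO lines 3 differed, beside 11.3%: Myc by 2.17 (adjusted p = 0.00026), Mycl by −1.44 (adjusted p = 9.6e-06) and Mxd4 by 1.82 (adjusted p = 1.2e-05). The Oct4-cKO and Sox2-cKO lines differed in 2, beside 6.81%: Mycn by 1.36 (SE 0.077, adjusted p = 1.6e-09) and Myc by 1.21 (SE 0.37, adjusted p = 0.026). This last Myc call was lost without any 1 of 7 of the 8 libraries behind it (0.74 to 1.27, adjusted p = 0.09 to 0.19, the exception being untreated Oct4-cKO replicate 2) and with these groups fitted alone (adjusted p = 0.12).

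For conversion from ESCs to L-EPSCs, Myc differed by 2.56 between the Sox2-cKO and Nanog-cKO lines (SE 0.37, adjusted p = 7.2e-05), the only member of 10 called there, beside 9.16% of all genes. Myc (1.77, SE 0.37, adjusted p = 0.0019) and Mxd1 (−1.15, SE 0.21, adjusted p = 0.00061) differed between the Oct4-cKO and Nanog-cKO lines, 2 of 10 beside 8.58%. That Mxd1 difference was −0.97 without Oct4-cKO ESC replicate 1 and −0.94 without Oct4-cKO L-EPSC replicate 1, within the threshold, and the Myc difference had an adjusted p of 0.12 with these groups fitted alone. Between the Oct4-cKO and Sox2-cKO lines 0 of 10 were called with limma, beside 5.36%, and 4 had an unadjusted p under 0.05. Myc differed there by −0.79 (95% interval −1.59 to 0.00), and by −1.26 with a call without Oct4-cKO L-EPSC replicate 2.

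Per exonic kilobase, which sets genes of different length on 1 scale, Mycn was the largest of the 3 Myc family genes in 9 of the 12 groups. It made up 72.4% ± 3.00 of their summed level per kilobase in J1 ESCs and 83.5% ± 0.883 in D-EPSCs. The exceptions were J1 L-EPSCs, where Myc (47.4% ± 0.299) and Mycn (44.5% ± 0.312) took similar shares, and Dox-treated Oct4-cKO and Sox2-cKO L-EPSCs, where Myc took 63.4% ± 0.187 and 46.8% ± 2.35. In untreated tet-off L-EPSCs Myc was 5.92% ± 2.09 (Oct4-cKO), 3.20% ± 0.192 (Sox2-cKO) and 1.76% ± 0.875 (Nanog-cKO) of the sum, against 33.4% ± 1.38, 12.8% ± 0.494 and 32.5% ± 1.02 in the ESCs of those lines. Mycl took its highest share, 32.2% ± 2.14, in Sox2-cKO L-EPSCs and its lowest, 2.57% ± 0.523, in Dox-treated Oct4-cKO L-EPSCs.

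The summed level of the 3 genes per kilobase was 564 ± 23.2 in J1 ESCs, 1051 ± 26.5 in D-EPSCs and 652 ± 0.607 in L-EPSCs. In the tet-off lines it went from 689 ± 7.87 in ESCs to 262 ± 27.3 in L-EPSCs and 629 ± 9.63 with Dox (Oct4-cKO), from 896 ± 16.4 to 405 ± 13.3 and 320 ± 2.49 (Sox2-cKO), and from 913 ± 33.7 to 330 ± 0.0318 and 275 ± 5.58 (Nanog-cKO). With Dox the sum was thus higher than without in the Oct4-cKO line and lower in the Sox2-cKO line, where Myc was higher but Mycn and Mycl lower. The 5 antagonists Mxd1, Mxd3, Mxd4, Mxi1 and Mnt summed to 368 ± 22.2, 375 ± 10.6 and 271 ± 4.76 per kilobase in J1 ESCs, D-EPSCs and L-EPSCs. With Dox their sum was 571 ± 5.89 against 404 ± 6.20 without in the Oct4-cKO line, 568 ± 13.7 against 384 ± 15.0 in the Sox2-cKO line, and 369 ± 11.0 against 380 ± 9.41 in the Nanog-cKO line. Max alone, at 469 to 817 per kilobase over the 12 groups, exceeded the level of every Mxd gene and of Mnt in each group. These sums are descriptions of RNA and were not tested.

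**Figure D4:**
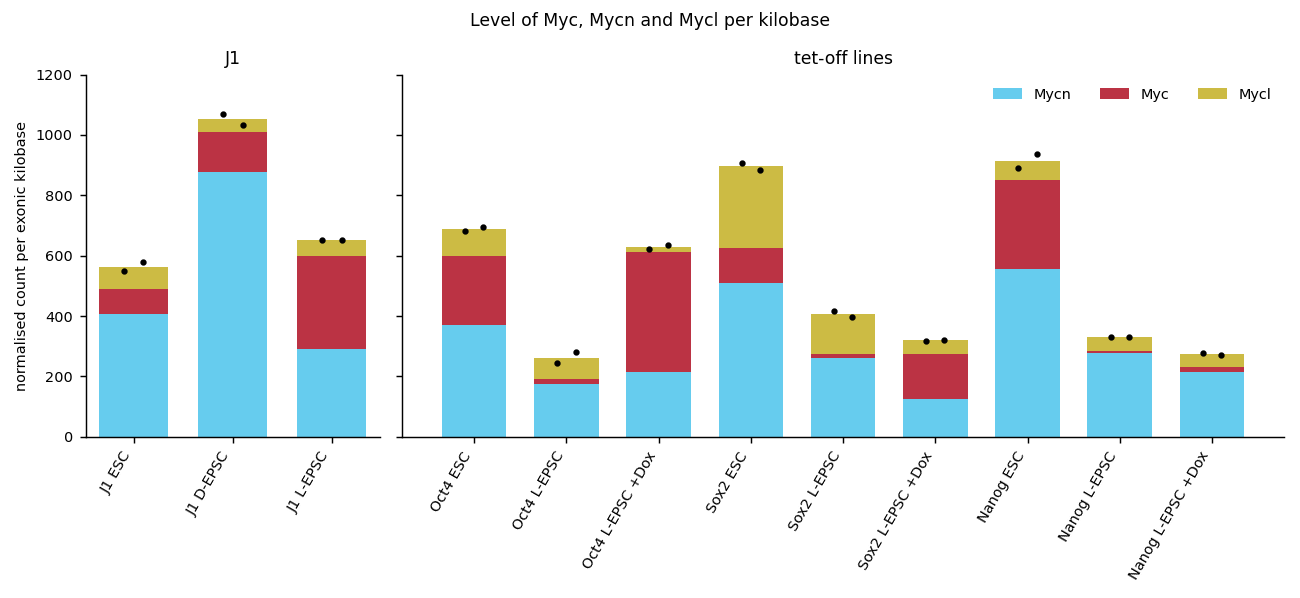
Stacked group means of Mycn, Myc and Mycl in normalised counts per exonic kilobase, with the 2 libraries' sums as black points, for the J1 table (left) and the tet-off table (right). The Myc segment is thin in untreated tet-off L-EPSCs (5.80 to 15.8 per kilobase) and is the largest in Dox-treated Oct4-cKO L-EPSCs (399 per kilobase).

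Across the 18 tet-off libraries, the 3 genes whose log2(normalised count + 1) followed Myc most closely, among 10029 others with a mean of at least 100, were Zdhhc5 (Pearson r = 0.965), Hsph1 (0.961) and Ube4a (0.960). Mycn was followed by Hspbap1 (0.961), Tbc1d15 (0.955) and Fbxo22 (0.955), and Mycl by Pim2 (0.959), Ankrd28 (0.957) and Adgrv1 (0.955). Among themselves the family genes followed each other less closely, with r = 0.27 for Myc and Mycn, −0.14 for Myc and Mycl and 0.51 for Mycn and Mycl. These libraries share 3 lines and 9 groups, so the coefficients describe the groups and carry no p.

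Genes widely described as Myc targets, a list of 30 with nucleolar, ribosome biogenesis and metabolic genes, were read beside Myc. In J1 cells 1 was called higher and 1 lower in D-EPSCs against ESCs (median log2 0.06, beside 0.01 over all genes), fewer than the 10.8% and 9.98% of all genes. L-EPSCs against ESCs gave 3 and 0 (median 0.19, with 26 of 30 above 0), beside 8.80% and 11.5%, and L-EPSCs against D-EPSCs 1 and 0 (median 0.16), beside 4.80% and 8.58%. The counts called higher in L-EPSCs thus lay near the background. Odc1, which encodes the rate-limiting enzyme of polyamine synthesis, rose from 5450 ± 69.0 in ESCs to 9086 ± 34.0 in D-EPSCs (log2 0.74) and 10353 ± 45.1 in L-EPSCs (0.93). Ldha, the lactate dehydrogenase subunit, was 8141 ± 19.8 in ESCs, 4918 ± 105 in D-EPSCs and 15421 ± 332 in L-EPSCs, so that it fell in D-EPSCs (−0.73) and rose in L-EPSCs (0.92). Nme1, a nucleoside diphosphate kinase, rose in L-EPSCs (0.64).

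With conversion of the tet-off lines, where Myc fell, 13 of the 30 targets fell and 1 rose in the Oct4-cKO line (median −0.45), beside 15.4% lower and 13.0% higher over all genes. In the Nanog-cKO line 8 fell and 2 rose (median −0.25), beside 14.7% and 12.2%. In the Sox2-cKO line 3 fell and 2 rose (median −0.03), beside 11.6% and 7.99%, so both counts lay near the background there. The median over all genes tested was 0.00 in each. Polr1b, a subunit of RNA polymerase I, went from 1820 ± 80.8 in ESCs to 650 ± 4.99 in L-EPSCs of the Oct4-cKO line (log2 −1.48) and from 1991 ± 46.1 to 884 ± 3.74 in the Nanog-cKO line (−1.17). The DNA repair nuclease gene Apex1 fell by 1.47 and 1.22, and in the Oct4-cKO line Nolc1, a nucleolar factor, fell by 1.42. Odc1 fell from 10894 ± 12.7 to 4549 ± 74.3 in the Nanog-cKO line (−1.26). Against the direction of Myc, Tfrc, the transferrin receptor, rose in all 3 lines (1.04 in Oct4-cKO, 0.76 in Nanog-cKO and 0.94 in Sox2-cKO), in the last from 6231 ± 32.8 to 11944 ± 37.4. The other targets that rose were Dkc1 in the Nanog-cKO line (0.94) and Ldha in the Sox2-cKO line (0.73), where Nolc1 fell (−0.69). The risers of the Oct4-cKO and Nanog-cKO lines were named after their values were seen.

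With Dox, where Myc rose, 0 of the 30 targets were called higher in any line with limma, while 9, 1 and 4 were higher at an unadjusted p under 0.05 in the Oct4-cKO, Sox2-cKO and Nanog-cKO lines. The highest log2 of the list was 0.73, 0.44 and 0.46 in these lines, below the fold threshold of 1. In Oct4-cKO L-EPSCs 3 fell (median −0.14), beside 10.8% of all genes: Cad, the enzyme that starts pyrimidine synthesis, went from 6853 ± 16.5 to 2753 ± 33.2 (log2 −1.32), Tert, the telomerase reverse transcriptase, from 453 ± 12.1 to 182 ± 25.5 (−1.32) and Dkc1, a telomerase and snoRNA cofactor, from 2820 ± 29.9 to 1375 ± 21.0 (−1.04). In Sox2-cKO L-EPSCs 3 fell, with a median of −0.61 and 28 of 30 below 0, beside 7.32% of all genes: Srm, the spermidine synthase, from 1836 ± 122 to 734 ± 34.3 (−1.32), Bop1, a ribosome assembly factor, from 2320 ± 3.73 to 982 ± 18.8 (−1.24) and Rrp9, a U3 snoRNP subunit, from 1268 ± 85.3 to 631 ± 31.2 (−1.0). In Nanog-cKO L-EPSCs 1 fell (median −0.08), beside 2.59% of all genes, namely Tfrc, from 13253 ± 171 to 5357 ± 110 (−1.31). At the Dox threshold of 1 the counts that fell lay near the background in each line. The conversion counts above used 0.6, so the counts of conversion and Dox are not alike. In the Sox2-cKO line the fall was broader than its count, with Apex1 (−0.96), Nme1 (−0.93) and Fbl (−0.88) among those short of the threshold. The median over all genes was 0.00 in each of these comparisons as well.

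**Figure D5:**
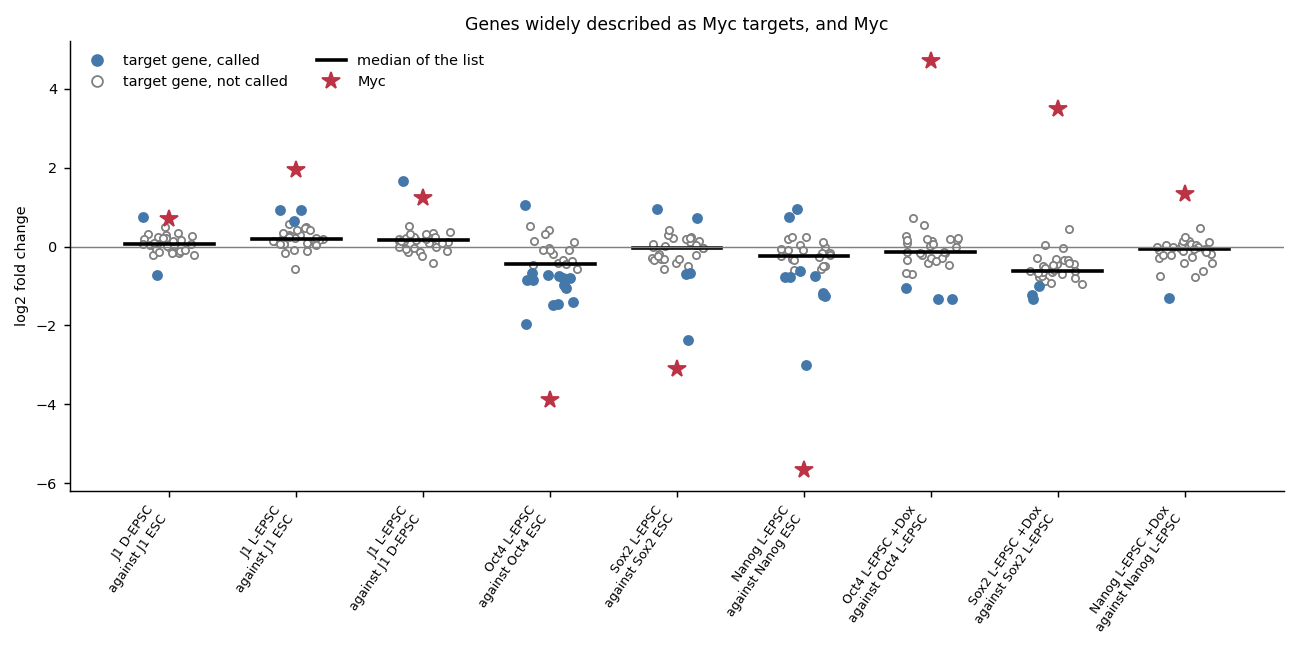
Log2 fold change of the 30 genes widely described as Myc targets in the 9 comparisons, with filled points for genes called, a bar at the list's median and a star for Myc itself. The medians lie between −0.61 and 0.19, and the stars of the 3 Dox comparisons lie above 0 while the called targets lie below it.

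Of 5 genes known to be induced by MondoA or ChREBP with Mlx, the 3 with a mean of at least 100 normalised counts that were called are named here. Txnip, an inhibitor of glucose uptake, rose with conversion from 4512 ± 91.4 to 20590 ± 146 in the Oct4-cKO line (log2 2.19, adjusted p = 2.1e-19) and from 5180 ± 56.9 to 28273 ± 159 in the Nanog-cKO line (2.45, adjusted p = 1.9e-20), and fell with Dox to 7654 ± 38.3 in the Oct4-cKO line (−1.43). Its relative Arrdc4 rose in the same 2 conversions (0.99 and 1.13). In J1 cells both rose in D-EPSCs (Txnip 0.74, Arrdc4 0.98) and L-EPSCs (1.01 and 1.02). The triokinase gene Tkfc fell in the 3 conversions (−1.05, −0.83 and −0.81). Over the 5 genes, the calls higher and lower were 3 and 1, 3 and 0, and 0 and 1 in the J1 comparisons of D-EPSCs with ESCs, L-EPSCs with ESCs and L-EPSCs with D-EPSCs, 2 and 3, 0 and 3, and 2 and 2 in the Oct4-cKO, Sox2-cKO and Nanog-cKO conversions, and 0 and 1, 1 and 0, and 0 and 0 with Dox in the same lines. Genes of the list with lower levels moved further in some comparisons, so that its range was −2.31 to 2.34 in J1 D-EPSCs and −3.23 to 2.19 in the Oct4-cKO conversion. In a list of 5 genes a single call is already a larger share than the background of either direction in any of these comparisons, which was at most 15.4%.

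Of the 12 corepressor genes that Mxd and Mnt proteins recruit, 2 rose and 2 fell with Dox in both the Oct4-cKO and the Sox2-cKO line, beside 8.53% higher and 10.8% lower over all genes in the first and 7.79% and 7.32% in the second. None was called in the Nanog-cKO line, where 6 were higher and 4 lower at an unadjusted p under 0.05. Sin3b, a scaffold of the Sin3 complex, rose from 2020 ± 17.5 to 8254 ± 180 (log2 2.03) and from 1837 ± 72.5 to 4443 ± 78.3 (1.27), and the histone chaperone Rbbp7 from 5295 ± 112 to 19396 ± 166 (1.87) and from 6701 ± 12.4 to 20329 ± 41.7 (1.6). Sap30, a Sin3 complex subunit, fell in the Sox2-cKO line (−1.62). With conversion, Sin3b rose in the Oct4-cKO (1.14) and Nanog-cKO (0.85) lines while Ncor1 fell in both (−0.93 and −1.27), and Hdac1 fell in the Oct4-cKO line (−1.20). The counts higher and lower were 2 and 2 (beside 13.0% and 15.4% over all genes), 0 and 0, and 1 and 1 (beside 12.2% and 14.7%) in the Oct4-cKO, Sox2-cKO and Nanog-cKO conversions, and in J1 cells 0 and 0, 0 and 1 (Ncor1, −0.65), and 0 and 0.

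Of 8 relatives of the network, Tfap4 fell with each conversion (log2 −0.71, −0.72 and −1.13), Tfeb in the Sox2-cKO (−0.92) and Nanog-cKO (−1.31) lines and Tfe3 in the Sox2-cKO line (−1.19). With Dox, Tfeb rose from 394 ± 21.1 to 1153 ± 20.4 in the Oct4-cKO line (1.55), where Mga, a large Max partner found in the repressive complex PRC1.6, fell from 3552 ± 32.6 to 1506 ± 12 (−1.24) and Mlxipl, which encodes ChREBP, from 392 ± 6.08 to 130 ± 22.6 (−1.59). No relative was called with Dox in the other lines, and in J1 cells the 1 called in each EPSC state against ESCs was Mlxipl (−2.12 in D-EPSCs and −1.49 in L-EPSCs, named after its values were seen). Of 9 other genes of PRC1.6, L3mbtl2 fell (−1.40, −0.61 and −0.91) and Yaf2 rose (1.23, 0.66 and 1.07) in the 3 conversions, where 2 and 1, 1 and 1, and 4 and 1 were called higher and lower, beside 13.0% and 15.4%, 7.99% and 11.6%, and 12.2% and 14.7% of all genes. Outside the conversions the calls of this list were E2f6, higher in J1 L-EPSCs than in ESCs (0.68) and with Dox in the Sox2-cKO line (1.04), and Ring1, lower in J1 L-EPSCs than in D-EPSCs (−0.69). Ring1 was also called in the Oct4-cKO conversion, where it rose (0.63).

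Of 12 Myc cofactors, 5 fell with conversion in the Oct4-cKO line, beside 15.4% of all genes, led by Hcfc1 (log2 −0.92) and the acetyltransferase gene Ep300 (−0.91), which also fell in the Sox2-cKO (−1.07) and Nanog-cKO (−0.76) lines. Wdr5 fell in J1 D-EPSCs (−1.05) and L-EPSCs (−0.93), and no cofactor was called with Dox, although 8, 7 and 6 of the 12 were lower at an unadjusted p under 0.05 in the Oct4-cKO, Sox2-cKO and Nanog-cKO lines. In the Nanog-cKO conversion Zbtb17, which encodes the Myc partner Miz1, rose (0.68). Of 12 genes of Myc protein turnover, Usp28, a deubiquitinase that stabilises Myc, rose in J1 D-EPSCs (1.16), J1 L-EPSCs (0.97) and Nanog-cKO L-EPSCs (1.04) against their ESCs and fell with Dox in the Oct4-cKO (−1.51) and Sox2-cKO (−1.09) lines. Fbxw7, which marks Myc for degradation, fell with conversion in the Nanog-cKO line, from 787 ± 46.1 to 375 ± 0.944 (−1.07), as did Trib1 (−1.89). The turnover counts higher and lower were 1 and 1 in each J1 EPSC state against ESCs, 0 and 3, 0 and 1, and 1 and 4 in the 3 conversions, and 0 and 1, 0 and 2, and 0 and 0 with Dox. Over all genes the shares lower were 15.4%, 11.6% and 14.7% in the conversions and 10.8%, 7.32% and 2.59% with Dox, so that the counts of 1 in a list of 12 lay near the background.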

How the data were processed

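Poly(A) RNA of 24 libraries (12 groups of 2 replicates) was sequenced. Per the submitters' processing notes, the authors used Trim Galore (0.6.4), STAR (2.7.9a), HTSeq (0.11.2) and DESeq2 (given as 4.1.1), with NCBIM37 gene models. The deposited values are a signal: gene counts divided by DESeq2 size factors by the authors, with the J1 and tet-off tables scaled separately, so tests were kept within a table. Whole reads were recovered for 100% of values (tolerance 0.01 read), giving 10807631 to 15069899 reads per library. No column of per-sample values was left unused (0). The coordinates deposited beside the values are of a later build and were not used.

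Each gene that had 2 or more reads over its table was tested on log2(normalised count + 1) with limma (3.58.1, R 4.3.3, trend), all groups of a table in 1 fit, and p-values were adjusted by Benjamini-Hochberg over all genes tested. Fold changes on this scale understate the change of low genes. Alternatives were edgeR (4.0.16) and DESeq2 (1.42.0) on the recovered reads, TMM scaling, a pseudocount of 0.1, a minimum mean of 10, the groups compared alone, the other fold threshold (0.6 or 1), a replicate block and leaving out each replicate. Levels per kilobase used the union of a gene's exons, or its longest transcript as an alternative. The fits were tested on simulated data. All members were named, and from each list the 3 called genes with the largest fold change and a mean of at least 100. A result that this rule would name is not reported here. The members and lists were chosen with earlier results of these data known. Same-numbered libraries of different groups did not deviate together (r from −0.0093 to −0.00127 in J1 and from −0.0279 to 0.0402 in the tet-off table, none of the 3 and 36 pairs over 0.1), so the numbers were not taken to pair samples.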

Additional observations from a re-analysis of the deposited data

Results flagged for a closer look

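Effects of a member that differed between 2 lines by the interaction test in limma (adjusted p under 0.05 and a log2 difference beyond 1) are given with their values. The Dox effect of Myc was larger in the Oct4-cKO than in the Sox2-cKO line by 1.21 (adjusted p = 0.026), a call lost without any 1 of 7 of the 8 libraries behind it (0.74 to 1.27, adjusted p = 0.09 to 0.19) and with these groups fitted alone (adjusted p = 0.12). The Oct4-cKO effect was larger than that in the Nanog-cKO line by 3.38 (adjusted p = 2e-06), and it was larger in the Sox2-cKO than in the Nanog-cKO line by 2.17 (adjusted p = 0.00026). The Dox effect of Mycn differed between the Oct4-cKO and Sox2-cKO lines by 1.36 (adjusted p = 1.6e-09). That of Mycl was lower than in the Nanog-cKO line, by −2.07 in the Oct4-cKO (adjusted p = 1.2e-07) and −1.44 in the Sox2-cKO line (adjusted p = 9.6e-06). Against the Nanog-cKO line, Mxd4 differed by 1.48 in the Oct4-cKO (adjusted p = 8.2e-05) and 1.82 in the Sox2-cKO line (adjusted p = 1.2e-05), and in the Oct4-cKO line Mxd1 differed by 1.67 (adjusted p = 8.9e-06) and Mlx by 1.14 (adjusted p = 6.9e-07).

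The effect of conversion from ESCs to L-EPSCs on Myc was less negative than in the Nanog-cKO line by 1.77 in the Oct4-cKO line (adjusted p = 0.0019, or 0.12 and not called with these groups fitted alone) and by 2.56 in the Sox2-cKO line (adjusted p = 7.2e-05). That on Mxd1 differed between the Oct4-cKO and Nanog-cKO lines by −1.15 (adjusted p = 0.00061), and by −0.97 and −0.94, within the threshold, without Oct4-cKO ESC replicate 1 or Oct4-cKO L-EPSC replicate 1. The Nanog-cKO values of Myc rest on 20 and 10 reads in untreated L-EPSCs. Each line is a single line, and with Dox the targeted RNA fell least in the Nanog-cKO line, where the study reported loss of Nanog protein. Line, targeted factor, the size of that RNA fall and any response of a line to Dox itself cannot be told apart.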

How the results depend on the processing

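Of the member fold changes under the alternatives, 1841 kept their direction and call, 19 lost and 7 gained a call, and 23 changed sign. All 23 were of uncalled values near 0. With edgeR, Mxd1 in the Sox2-cKO conversion was 0.002. Leaving out 1 library at a time, Mlx ranged from −0.101 to 0.038 in J1 D-EPSCs and from −0.018 to 0.115 in J1 L-EPSCs against ESCs, from −0.024 to 0.103 in the Nanog-cKO conversion and from −0.008 to 0.138 with Sox2-cKO Dox. Mxd3 ranged from −0.110 to 0.175 in the Oct4-cKO and from −0.417 to 0.015 in the Sox2-cKO conversion, and from −0.276 to 0.156 for the Dox effect of Sox2-cKO minus Nanog-cKO. Mxd1 ranged from −0.413 to 0.004 in the Oct4-cKO and from −0.119 to 0.069 in the Sox2-cKO conversion, and from −0.388 to 0.030 for their difference. Max ranged from −0.011 to 0.074 with Oct4-cKO Dox and Mycl from −0.108 to 0.009 with Nanog-cKO Dox. For the conversion effect of Oct4-cKO minus Nanog-cKO, Mycn ranged from −0.169 to 0.013, Mycl from −0.004 to 0.126 and Mxi1 from −0.002 to 0.218, and for that of Sox2-cKO minus Nanog-cKO, Mxd4 from −0.383 to 0.078.

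With a fold threshold of 1 the members called were 1 in J1 D-EPSCs against ESCs, 2 in the Sox2-cKO and 1 in the Nanog-cKO conversion. With 0.6 they were 5 for the Dox effect and 1 for the conversion effect of Oct4-cKO minus Sox2-cKO, and 5 and 3 for those of Sox2-cKO minus Nanog-cKO. With the groups compared fitted alone they were 0 for Nanog-cKO Dox, 1 for the Dox effect of Oct4-cKO minus Sox2-cKO and 1 for the conversion effect of Oct4-cKO minus Nanog-cKO, a fit with fewer samples. Over all genes that fit called 479 in Nanog-cKO Dox against 1293. Leaving out 1 library at a time gave 0 to 1 members called for Nanog-cKO Dox, 1 to 2 for the Dox effect and 0 to 1 for the conversion effect of Oct4-cKO minus Sox2-cKO, and 1 to 2 for the conversion effects of Oct4-cKO minus Nanog-cKO and Sox2-cKO minus Nanog-cKO. With a replicate block no member changed its call (4 members called in J1 D-EPSCs against ESCs, as without it) and 4349 genes were called there against 4466. Of the counts called per gene list, 2379 stayed within 1.5 times their value and 213 did not, and of the family shares per kilobase 91 stayed within 1 SD and 17 did not. TMM scaling moved the median log2 fold change of genes with a mean of at least 10 normalised counts by at most 0.037. Myc at 10 to 63 reads in untreated tet-off L-EPSCs is the value most limited by depth. The cause of these changes was not tested.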
